A study of Homo sapiens with 6 samples.

Results

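The RAF-MEK-ERK cascade carries growth signals from RAS proteins at the cell membrane to the nucleus, and 8 of its genes were followed in A375 cells, an established human melanoma line. NRAS encodes a RAS protein. BRAF and ARAF encode RAF kinases, MAP2K1 and MAP2K2 the kinases MEK1 and MEK2, and MAPK3 the kinase ERK1. KSR1 encodes a scaffold that holds RAF, MEK and ERK together, and SHOC2 encodes a leucine-rich repeat protein that works with a RAS protein and a phosphatase to release RAF from inhibition. The 8 genes were picked by symbol out of the 18318 genes of the count table, with the opposite shifts of KSR1 and SHOC2 between the groups already known. The comparison of the groups was thus used to choose them, and for these genes it is given as a description, with no test.

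RNA came from cells transfected with a pcDNA3.1 plasmid that expresses full-length wild type SLNCR (3 libraries) or with the plasmid backbone alone, called empty vector here (3 libraries). In both groups the plasmid carried a CAG promoter and a puromycin resistance gene, and RNA was extracted after 48 h in 2 µg/mL puromycin. The series was made to find genes that SLNCR, a long non-coding RNA, regulates in melanoma cells. Plasmids were delivered to a single line with Lipofectamine, and the labels do not say how the cultures of the 3 biological replicates were separated, so errors here measure the spread between these libraries.

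Totals were between 9287450 and 10822083 counts per library, and 12797 genes were tested. SLNCR, counted as LINC00673, stood at 215 ± 40.0 CPM in SLNCR libraries and 20.6 ± 1.04 CPM in empty vector libraries (CPM, counts scaled to the TMM-adjusted size of the library; SD, n = 3 each). The labels give the cell type as epithelial. The melanocyte lineage genes MITF (95.6 CPM in SLNCR libraries, 85.4 CPM in empty vector libraries) and SOX10 (12.7 and 13.4 CPM) were present. MLANA stood at 1.32 and 1.52 CPM, and the pigment genes PMEL, DCT and TYRP1 lay below 1 CPM. TYR and S100B were not among the genes of the count table. Below 1 CPM lay also 6 of 8 keratinocyte and epithelial markers (EPCAM, CDH1, KRT1, KRT5, KRT14 and TP63). The other two were present, KRT10 at 24.0 CPM in SLNCR libraries and 27.9 CPM in empty vector libraries and DSP at 46.2 and 44.3 CPM. The summed level of the 8 was 69.4 to 72.9 CPM with SLNCR and 70.2 to 76.5 CPM with the empty vector. Of 6 fibroblast markers, PDGFRB stood at 9.98 CPM in SLNCR libraries and 11.3 CPM in empty vector libraries. COL1A1 stood at 2.42 and 3.12 CPM, LUM at 1.03 and 0.917 CPM and THY1 at 1.11 and 0.832 CPM. COL1A2 and DCN lay below 1 CPM. The sum of 11 non-coding RNAs read for RNA quality was 31200 to 33500 CPM with SLNCR and 31900 to 36900 CPM with the empty vector. RN7SK was its largest part, at 16300 CPM with SLNCR and 16100 CPM with the empty vector. RN7SL1 stood lower with SLNCR (2890 and 3570 CPM), as did RN7SL2 (1660 and 2540 CPM), and RMRP did not (5820 and 5750 CPM). Of these RNAs 10 were tested and 0 passed (edgeR adjusted p below 0.05), beside 16.5% of all tested genes. The libraries differed in how counts depended on the base composition of genes. Across 12002 genes, the deviation of a library from the mean of all 6 correlated with transcript GC content at r = -0.459, -0.199 and -0.589 in SLNCR replicates 1, 2 and 3, and at r = 0.598, 0.496 and 0.267 in empty vector replicates 1, 2 and 3. The sign of this trend followed the group, negative in every SLNCR library and positive in every empty vector library. A difference in expression between GC-rich and GC-poor genes thus cannot be told apart from a GC trend of the libraries. Fold changes are therefore given as fitted and also after a GC correction made within each library, which removes either.

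RAS proteins bind GTP on growth factor signals and recruit RAF kinases to the membrane, where RAF dimers phosphorylate MEK and MEK phosphorylates ERK. In melanoma the cascade is often kept on by mutations in BRAF or NRAS, and A375 is a line with an activating BRAF mutation. Gene counts cannot tell a mutant from a normal transcript.

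The promoters of the 4 genes whose fold changes were farthest from 0 in each direction are shown, SHOC2 and NRAS for the higher and KSR1 and MAP2K2 for the lower. Each runs from 250 bases before to 50 bases after the first start site in RefSeq (GRCh38.p14), read 5′ to 3′ on the gene's strand. Capitals mark the GC box GGGCGG or its reverse complement CCGCCC, a sequence bound by SP1-type factors.
SHOC2 (chr10:110919120-110919419, plus strand): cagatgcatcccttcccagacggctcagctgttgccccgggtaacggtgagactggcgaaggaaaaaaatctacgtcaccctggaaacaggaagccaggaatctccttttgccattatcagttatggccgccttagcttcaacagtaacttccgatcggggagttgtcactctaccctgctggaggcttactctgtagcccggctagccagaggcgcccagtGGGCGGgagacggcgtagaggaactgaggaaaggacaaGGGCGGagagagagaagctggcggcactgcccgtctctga
NRAS (chr1:114716722-114717021, minus strand): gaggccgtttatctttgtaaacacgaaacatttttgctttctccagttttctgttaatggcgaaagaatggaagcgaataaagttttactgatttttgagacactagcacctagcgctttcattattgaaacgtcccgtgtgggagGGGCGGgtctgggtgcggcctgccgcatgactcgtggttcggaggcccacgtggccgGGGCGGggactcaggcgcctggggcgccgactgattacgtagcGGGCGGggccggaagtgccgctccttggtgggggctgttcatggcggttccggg
KSR1 (chr17:27456198-27456497, plus strand): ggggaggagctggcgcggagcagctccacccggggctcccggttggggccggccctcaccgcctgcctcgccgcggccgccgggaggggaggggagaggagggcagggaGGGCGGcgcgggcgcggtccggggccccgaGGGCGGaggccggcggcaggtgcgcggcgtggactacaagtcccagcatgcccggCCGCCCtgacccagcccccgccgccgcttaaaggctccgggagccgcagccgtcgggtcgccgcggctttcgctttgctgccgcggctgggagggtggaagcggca
MAP2K2 (chr19:4124073-4124372, minus strand): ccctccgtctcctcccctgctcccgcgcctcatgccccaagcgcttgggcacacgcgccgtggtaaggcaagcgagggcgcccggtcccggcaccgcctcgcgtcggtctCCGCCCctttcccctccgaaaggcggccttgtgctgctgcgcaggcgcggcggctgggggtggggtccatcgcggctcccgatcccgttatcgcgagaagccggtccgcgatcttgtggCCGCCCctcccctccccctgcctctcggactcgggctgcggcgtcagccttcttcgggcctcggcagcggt
The GC content of these windows was 57.3% for SHOC2, 57.3% for NRAS, 79.3% for KSR1 and 73.7% for MAP2K2, against a median of 58.7% over 35116 promoters. A GC box was found in 6 of the 12 promoters that RefSeq lists for the 8 genes, and in 45.0% of all promoters. These were the first promoters of NRAS, SHOC2, MAP2K1, MAPK3, KSR1 and MAP2K2. The promoters of BRAF and ARAF and the further promoters listed for MAP2K1, KSR1 and MAP2K2 held no GC box. E2F1, a transcription factor named in the study's title, binds motifs such as TTTGGCGC, TTTCCCGC, TTTCGCGC and TTTGCCGC. On either strand, 0 of the 12 promoters held any of these 4 motifs, and 3.31% of all promoters did. This says only that these letters are not in these windows.

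Among RAS genes, NRAS was higher with SLNCR. It had 1888, 1863 and 1947 counts in SLNCR replicates 1, 2 and 3, against 1532, 1344 and 1445 counts in empty vector replicates 1, 2 and 3. Scaled, it averaged 192 ± 21.6 CPM in SLNCR libraries and 153 ± 5.06 CPM in empty vector libraries (SD, n = 3 each). The groups did not overlap, and SLNCR replicate 3 was the highest library at 217 CPM. The log2 fold change was 0.32 (SE 0.0695), or 1.25-fold, and 0.13 (SE 0.0493) with the GC correction, where the groups overlapped. In the annotation NRAS (chromosome 1, 114704469 to 114716894, minus strand) overlaps no other gene. In bulk RNA a shift in the level of a gene cannot be told apart from a shift in the share of cells that express it.

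The scaffold genes lay at opposite ends. SHOC2 had 1000, 915 and 912 counts in SLNCR replicates 1, 2 and 3, against 717, 642 and 647 counts in empty vector replicates 1, 2 and 3. It averaged 94.8 ± 6.78 CPM in SLNCR libraries and 71.0 ± 0.440 CPM in empty vector libraries (SD, n = 3 each), and every SLNCR library was above every empty vector library. The spread of the empty vector libraries, a coefficient of variation of 0.619%, was below the 3.87% that counting alone gives at this depth. The log2 fold change of SHOC2 was 0.42 (SE 0.0668), or 1.33-fold. With the GC correction it was 0.20 (SE 0.0548), or 1.15-fold, and the groups still did not overlap. SHOC2 lies on chromosome 10 (110919547 to 111013667, plus strand), and the pseudogene RPL13AP6, with a mean of 51.0 counts, lies opposite to it.

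KSR1 was the least abundant of the 8 genes and the farthest below 0. It had 52, 55 and 51 counts in SLNCR replicates 1, 2 and 3, against 97, 87 and 54 counts in empty vector replicates 1, 2 and 3. Empty vector replicate 3 thus stood beside the SLNCR libraries, at 5.91 CPM against 4.94 to 5.68 CPM, and apart from the other empty vector libraries at 9.68 and 9.58 CPM. The means were 5.30 ± 0.366 CPM with SLNCR and 8.39 ± 2.15 CPM with the empty vector (SD, n = 3 each). Counting alone gives a coefficient of variation of 13.8% at the SLNCR depth and 11.2% at the empty vector depth, and the observed values were 6.91% and 25.6%. The log2 fold change was -0.67 (SE 0.189), a 1.59-fold lower level, and between -0.86 and -0.55 when single libraries were left out. Without empty vector replicate 3 it was -0.86, and without empty vector replicate 1 it was -0.55. With the GC correction it was -0.55 (SE 0.180), and empty vector replicate 3, at a deviation of -0.18 on the log2 scale from the gene's mean, lay within the SLNCR range of -0.34 to -0.10, so the groups then overlapped. KSR1 lies on chromosome 17 (27456470 to 27626438, plus strand), where 5 other annotated features overlap it, none of them tested: AC015688.4, a protein-coding gene, and AC069366.2 on the same strand, and 3 on the opposite strand. Reads that fall on shared bases cannot be told apart. Its relative KSR2 was at the limit of counting, with 2.13 ± 0.761 CPM in SLNCR libraries and 2.06 ± 0.327 CPM in empty vector libraries (SD, n = 3 each), and did not pass (log2 fold change 0.06, SE 0.300, edgeR adjusted p = 0.893). Its sign turned when empty vector replicate 2 (-0.04) or SLNCR replicate 1 (-0.27) was left out. Because both scaffold genes come from the same libraries, their ratio does not depend on library scaling. SHOC2 had 19.2, 16.6 and 17.9 counts per count of KSR1 in SLNCR replicates 1, 2 and 3. In empty vector replicates 1, 2 and 3 it had 7.39, 7.38 and 11.98. The opposite shifts of these genes were known when they were chosen, so the ratio restates that choice and is no separate evidence. Their transcripts have 37.2% GC for SHOC2 and 54.8% for KSR1, and the part of the GC trend in the ratio was not tested.

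**Figure D1:**
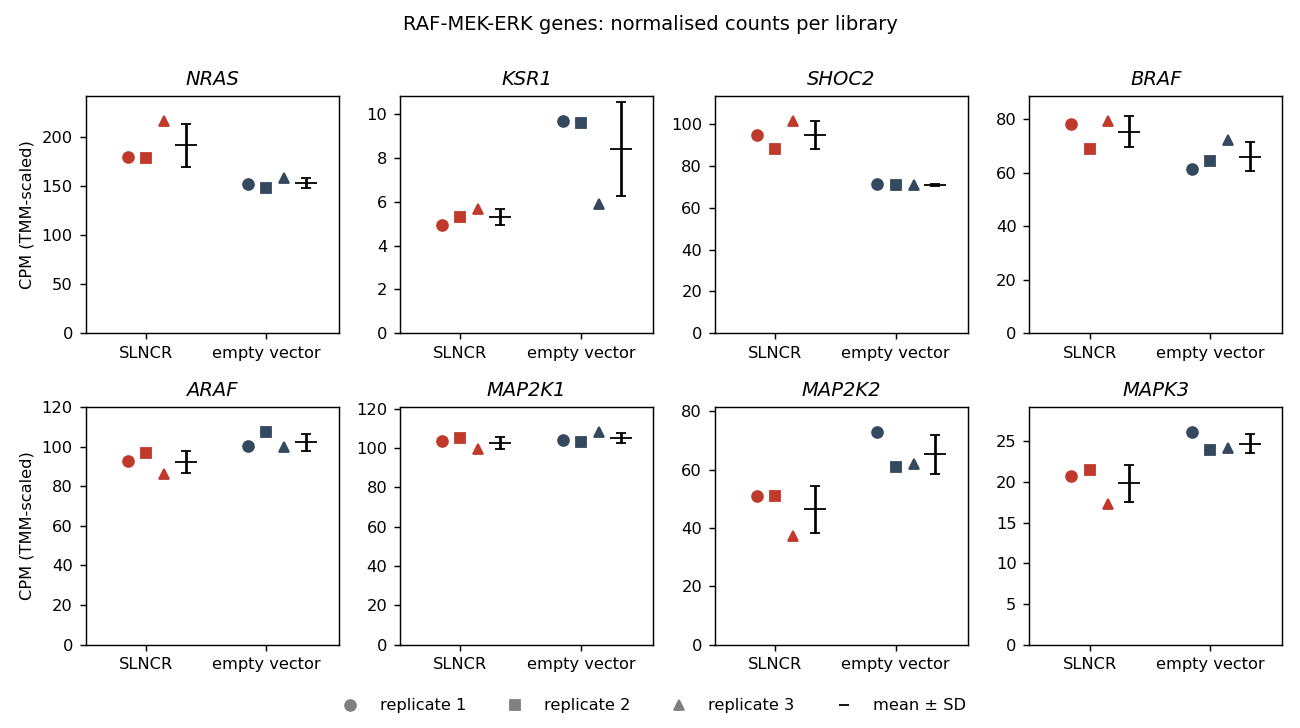
TMM-scaled CPM of the 8 genes in each library, on axes that start at 0, with SLNCR libraries at the left of each panel, empty vector libraries at the right, and black bars for the mean ± SD (n = 3). SHOC2 and NRAS lie higher with SLNCR, MAP2K2 and MAPK3 lower, and KSR1 in empty vector replicate 3 (5.91 CPM) lies next to the SLNCR libraries.

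The RAF kinase genes, whose products phosphorylate MEK, differed less between the groups. BRAF stood at 78.1, 68.6 and 79.2 CPM in SLNCR replicates 1, 2 and 3, against 61.4, 64.2 and 72.0 CPM in empty vector replicates 1, 2 and 3. The groups overlapped, and the log2 fold change of 0.19 (SE 0.0772) became 0.03 (SE 0.0607) with the GC correction. ARAF stood at 93.1, 97.2 and 86.1 CPM in SLNCR replicates 1, 2 and 3, against 100.2, 107.4 and 99.7 CPM in empty vector replicates 1, 2 and 3. Its groups did not overlap without the correction, at a log2 fold change of -0.15 (SE 0.0647), and with the correction its sign turned to 0.03 (SE 0.0528). BRAF lies on chromosome 7 (140719327 to 140924928, minus strand) opposite NDUFB2, and ARAF on chromosome X (47561100 to 47571920, plus strand) opposite SYN1. With no stated strand setting, reads where these genes overlap cannot be assigned to a strand.

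The MEK genes, whose products phosphorylate ERK, differed from each other. MAP2K1 overlapped between the groups, at 103, 105 and 99.3 CPM in SLNCR replicates 1, 2 and 3, against 104, 103 and 108 CPM in empty vector replicates 1, 2 and 3. Its log2 fold change was -0.03 (SE 0.0588), and 0.01 (SE 0.05) with the GC correction. MAP2K2 had 536, 531 and 334 counts in SLNCR replicates 1, 2 and 3, against 730, 552 and 567 counts in empty vector replicates 1, 2 and 3. It averaged 46.4 ± 7.98 CPM with SLNCR and 65.2 ± 6.61 CPM with the empty vector (SD, n = 3 each), and SLNCR replicate 3 was the lowest library at 37.2 CPM. The groups did not overlap with or without the GC correction, and the log2 fold change was -0.49 (SE 0.109) without it and -0.27 (SE 0.0793) with it. Without SLNCR replicate 3 the uncorrected value was -0.36. MAP2K1 lies on chromosome 15 (66386817 to 66492312, plus strand) opposite SNAPC5, and MAP2K2 on chromosome 19 (4090321 to 4124129, minus strand) with no overlapping gene.

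MAPK3, the ERK gene of the set, was lower with SLNCR. It had 218, 224 and 155 counts in SLNCR replicates 1, 2 and 3, against 262, 217 and 221 counts in empty vector replicates 1, 2 and 3. It averaged 19.8 ± 2.27 CPM with SLNCR and 24.7 ± 1.21 CPM with the empty vector (SD, n = 3 each), with no overlap, and its log2 fold change was -0.31 (SE 0.102). GC-corrected, the value was -0.09 (SE 0.0898) and the groups overlapped. MAPK3 lies on chromosome 16 (30114105 to 30123506, minus strand), with no overlapping gene.

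**Figure D2:**
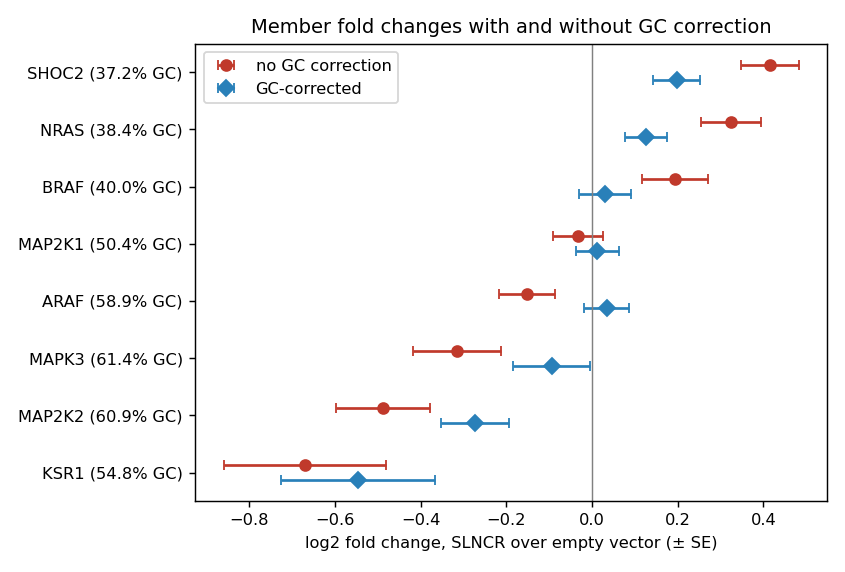
Log2 fold change (SLNCR over empty vector, horizontal axis, ± SE) of the 8 genes, with the GC content of the longest transcript beside each name. Circles are uncorrected and diamonds GC-corrected: KSR1 lies at -0.67 uncorrected and -0.55 corrected and SHOC2 at 0.42 and 0.20, while BRAF, ARAF and MAP2K1 lie at 0.03, 0.03 and 0.01 after correction.

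The sign of the fold change split the 8 genes by base composition. The fold changes were used to choose the genes and follow GC content over all tested genes, so this split is a description that carries no separate evidence. The 3 genes above 0 had the lowest transcript GC contents, 37.2% for SHOC2, 38.4% for NRAS and 40.0% for BRAF. The 5 genes below 0 had 50.4% for MAP2K1, 54.8% for KSR1, 58.9% for ARAF, 60.9% for MAP2K2 and 61.4% for MAPK3. Across the 8 genes, which share their libraries and are not replicates, Pearson's r between GC content and log2 fold change was -0.864, and it was -0.637 across all tested genes. After the correction it was -0.606 across the 8 genes. In the edgeR fit over all genes, 2 of the 8 were called higher and 3 lower at an adjusted p below 0.05, beside 16.5% of all tested genes (8.84% higher and 7.67% lower). SLNCR libraries lay wholly above empty vector libraries for 2 genes and wholly below for 4, beside 38.9% of all tested genes in either direction (19.7% above and 19.1% below). Since the same comparison was used to choose the genes, nothing is read from these counts. With the GC correction 0 of the 8 were called, beside 0.0156% of all tested genes (2 of 12797, against 1935 at an unadjusted p below 0.05). LINC00673, which has no GC content in the annotation used and was given the median, stood at an adjusted p of 0.0539 in that fit.

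**Figure D3:**
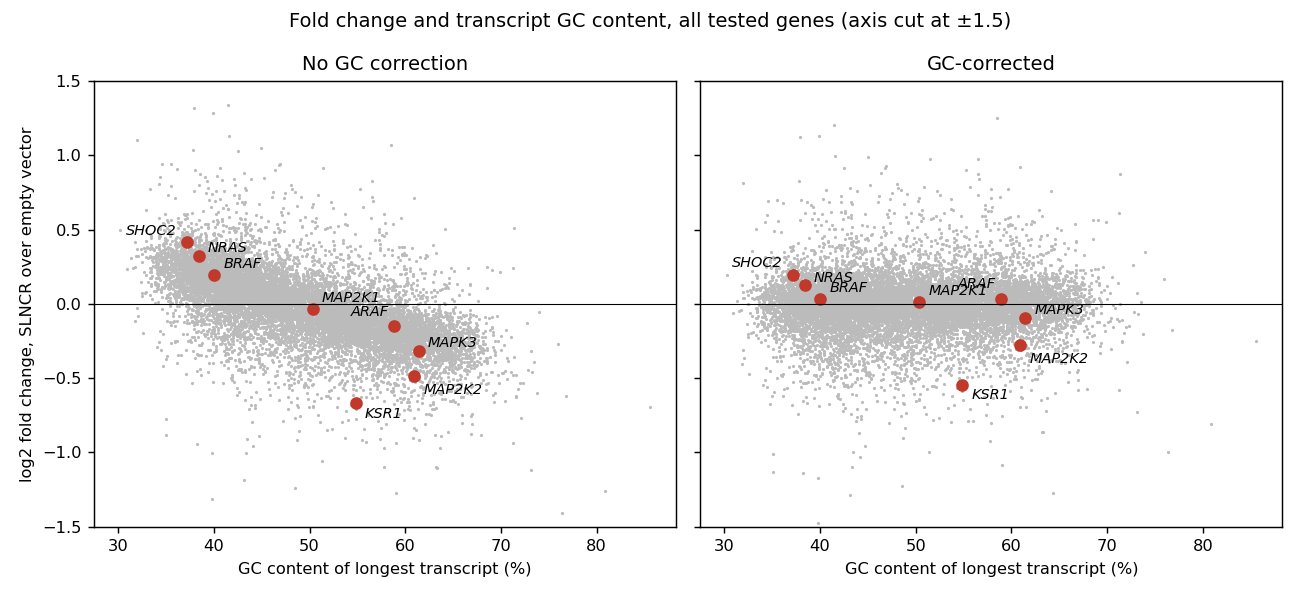
Log2 fold change (SLNCR over empty vector, vertical axis) against the GC content of the longest transcript (horizontal axis, %) for all tested genes with a known GC content (grey) and the 8 genes (red), without (left panel) and with (right panel) the GC correction. The vertical axis ends 1.5 above and below 0, which leaves out 3 genes at the left and 2 at the right. KSR1, at -0.67 and -0.55, is the lowest of the 8 genes in both panels.

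Compared per length of the longest transcript, the levels of the 8 genes spanned a wide range in both groups. In SLNCR libraries the mean was 43.1 ± 4.85 CPM per kb for NRAS, 36.8 ± 2.23 for ARAF, 30.1 ± 0.870 for MAP2K1, 24.0 ± 1.72 for SHOC2, 15.9 ± 2.73 for MAP2K2, 7.86 ± 0.610 for BRAF, 7.73 ± 0.886 for MAPK3 and 0.733 ± 0.0506 for KSR1 (SD, n = 3 each). In empty vector libraries it was 34.4 ± 1.14 CPM per kb for NRAS, 40.9 ± 1.71 for ARAF, 30.8 ± 0.760 for MAP2K1, 18.0 ± 0.112 for SHOC2, 22.3 ± 2.26 for MAP2K2, 6.88 ± 0.572 for BRAF, 9.64 ± 0.473 for MAPK3 and 1.16 ± 0.297 for KSR1 (SD, n = 3 each). NRAS was above ARAF in SLNCR libraries and below it in empty vector libraries, and SHOC2 was above MAP2K2 in SLNCR libraries and below it in empty vector libraries, with no overlap of the ranges in either group. Neither swap was present by merged exon length. There NRAS stood at 43.1 ± 4.85 CPM per kb and ARAF at 26.1 ± 1.58 with SLNCR, and NRAS at 34.4 ± 1.14 and ARAF at 28.98 ± 1.21 with the empty vector. SHOC2 stood at 21.4 ± 1.53 CPM per kb and MAP2K2 at 8.86 ± 1.52 with SLNCR, and SHOC2 at 16.0 ± 0.0993 and MAP2K2 at 12.5 ± 1.26 with the empty vector, by the same length (SD, n = 3 each). MAPK3 and BRAF had overlapping ranges with SLNCR by the longest transcript, and MAPK3 was above BRAF with the empty vector and, by merged exon length, in both groups. By merged exon length the mean over all 6 libraries put NRAS at rank 1, MAP2K1 at rank 2 and ARAF at rank 3, so the order of these genes depends on the transcripts assumed. KSR1 was last by either length, 7.79-fold below BRAF in the mean over libraries per length of the longest transcript.

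Ratios between genes inside a library do not depend on library scaling, and they were taken here without a GC correction. MAP2K1 had 2.03, 2.06 and 2.67 counts per count of MAP2K2 in SLNCR replicates 1, 2 and 3, against 1.43, 1.70 and 1.74 in empty vector replicates 1, 2 and 3. Per length, MAP2K2 made up 34.3 ± 3.43% of MEK transcripts with SLNCR and 41.9 ± 2.64% with the empty vector (SD, n = 3 each), MAP2K1 being the rest. By merged exon length the share was 24.4 ± 2.78% with SLNCR and 30.8 ± 2.33% with the empty vector, so its size depends on the length assumed. The groups did not overlap by either length. NRAS had 10.4, 11.1 and 16.6 counts per count of HRAS, a RAS gene outside the 8, in SLNCR replicates 1, 2 and 3, against 6.69, 7.77 and 8.40 in empty vector replicates 1, 2 and 3. The groups did not overlap here either, and SLNCR replicate 3 was the highest library in both ratios. It was also the library with the strongest GC trend among the SLNCR libraries (r = -0.589), and the part of that trend in the ratios was not tested. BRAF had 0.840, 0.706 and 0.920 counts per count of ARAF in SLNCR replicates 1, 2 and 3, against 0.613, 0.598 and 0.722 in empty vector replicates 1, 2 and 3. SLNCR replicate 2 lay below empty vector replicate 3, so these groups overlapped.

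**Figure D4:**
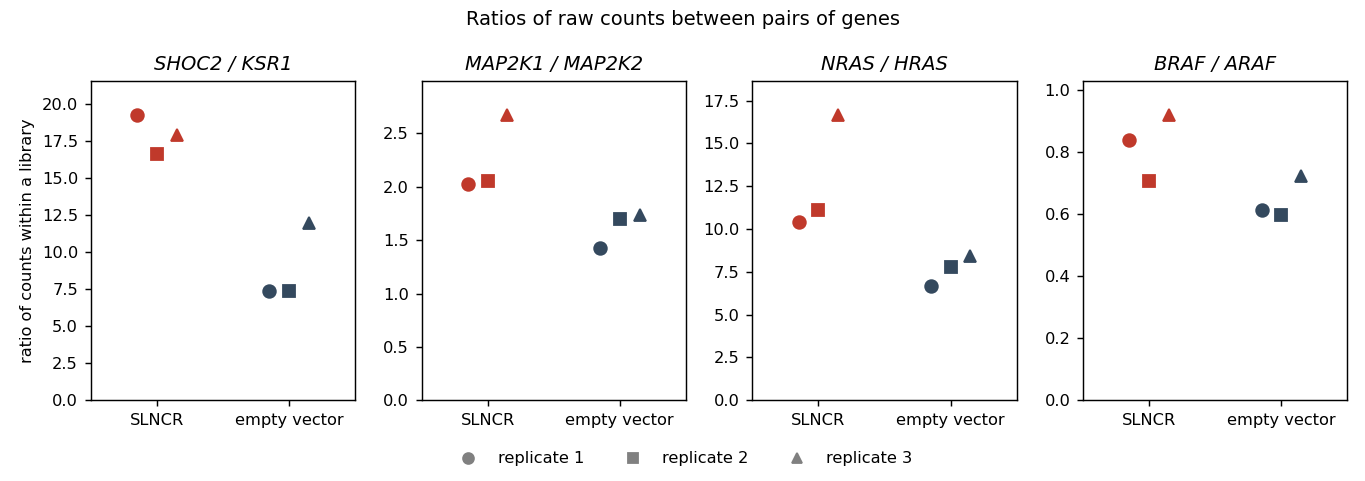
Ratio of raw counts of 2 genes in each library (vertical axis, from 0), with SLNCR libraries left of empty vector libraries and a marker shape for each replicate. SHOC2 over KSR1 is 16.6 or more with SLNCR and 11.98 or less with the empty vector, and the ratios of BRAF over ARAF overlap. The opposite shifts of SHOC2 and KSR1 were known when the genes were chosen.

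The other genes of the pathway, drawn from lists of known regulators, were tested. These lists, and the further lists below, were chosen with earlier results of these data known. The shares called in them are therefore descriptions beside the share over all tested genes. Of 92 tested genes in 4 lists, 15 were higher and 9 lower with SLNCR and 68 did not pass (edgeR adjusted p below 0.05). This is 26.1% called, beside 16.5% of all tested genes, and the median log2 fold change was -0.01 both in the lists and over all tested genes. The called genes split by base composition here too, with a median GC content of 40.0% among the 15 higher and 60.0% among the 9 lower genes. With the GC correction 0 of the 92 passed with edgeR, and 20 had an unadjusted p below 0.05, beside 1935 of all 12797 tested genes (15.1%). Of the 20, 15 came from the list of 35 paralogs, scaffolds and partners of RAF, MEK and ERK. The other lists gave 1, 2 and 2. When empty vector replicate 1 was left out, 0 passed with edgeR, and the same held for leaving out empty vector replicate 2 and for leaving out SLNCR replicate 1. At an unadjusted p below 0.05 there were 29, 28 and 33 genes in these fits. Over all tested genes there were 2957 of 12898, 3473 of 12993 and 3663 of 12878. The calls over all genes were lost there too, with 1 higher and 0 lower, 1 and 1, and 1 and 0. Without SLNCR replicate 2, 18 were higher and 15 lower. DESeq2 on all libraries called 15 higher and 8 lower.

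RAS proteins and their activators numbered 20 tested genes, of which 2 rose, 1 fell and 17 did not pass. The share called in this list was below the 16.5% of all tested genes. SOS1, a nucleotide exchange factor that loads RAS with GTP, rose (log2 fold change 0.25, SE 0.0749, edgeR adjusted p = 0.0316). HRAS fell (log2 fold change -0.39, SE 0.121, edgeR adjusted p = 0.0396), and it did not pass with DESeq2 (adjusted p = 0.0678). PTPN11, which encodes the phosphatase SHP2, stood at 0.10 (edgeR adjusted p = 0.134). In the GC-corrected fit SOS1 stood at 0.05, HRAS at -0.10 and PTPN11 at -0.01. SOS1 stood at 0.16 without SLNCR replicate 3 and did not pass (edgeR adjusted p = 0.0718). Its call was also lost without SLNCR replicate 1, empty vector replicate 1 or empty vector replicate 2 (edgeR adjusted p = 0.0704, 0.158 and 0.121). The call of HRAS was lost when SLNCR replicate 1, SLNCR replicate 3 or any of the 3 empty vector libraries was left out (edgeR adjusted p between 0.0502 and 0.211). The transcript of HRAS has 65.8% GC and that of NRAS 38.4%.

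Of 17 tested RAS GAPs and inhibitors 2 rose, 2 fell and 13 did not pass (23.5% called). SPRED1, which brings the GAP neurofibromin to the membrane, rose by 0.26 (SE 0.0606, edgeR adjusted p = 0.0159), and ERBIN, a membrane protein reported to interfere with SHOC2 complexes, rose by 0.22 (SE 0.0627, edgeR adjusted p = 0.0274). The GAP gene RASA3 fell by 0.29 (SE 0.0742, edgeR adjusted p = 0.0201) and RIN1, an effector that competes with RAF for RAS, fell by 0.27 (SE 0.0859, edgeR adjusted p = 0.0411). After GC correction SPRED1 stood at 0.07, ERBIN at -0.02, RASA3 at -0.15 and RIN1 at -0.04. Besides the fits in which 0 of the 92 genes passed, RIN1 did not pass without SLNCR replicate 3 (-0.19, edgeR adjusted p = 0.0874).

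Of 35 tested paralogs, scaffolds and partners of RAF, MEK and ERK, 9 rose, 4 fell and 22 did not pass (37.1% called). The phosphatase subunit gene PPP1CB, whose product forms the SHOC2 complex, rose by 0.28 (SE 0.0528, edgeR adjusted p = 0.0137). Of its relatives, also given after their values were seen, PPP1CC rose by 0.27 (edgeR adjusted p = 0.0174) and PPP1CA, at -0.07, did not pass (edgeR adjusted p = 0.454). The 14-3-3 genes YWHAZ and YWHAQ, whose products hold RAF kinases in the inactive state, both rose, YWHAZ by 0.26 (SE 0.0520) and YWHAQ by 0.23 (SE 0.0572), at edgeR adjusted p values of 0.0137 for YWHAZ and 0.0174 for YWHAQ. Of the other 14-3-3 genes in the list, given here after their values were seen, YWHAB rose by 0.20 (edgeR adjusted p = 0.0185). YWHAE at -0.13, YWHAG at 0.01 and YWHAH at 0.05 did not pass (edgeR adjusted p = 0.14, 0.926 and 0.524). CDC37, a co-chaperone that loads kinases such as RAF onto HSP90, fell by 0.33 (SE 0.0705, edgeR adjusted p = 0.0139). With the GC correction PPP1CB stood at 0.03, PPP1CC at 0.17, PPP1CA at 0.16 and CDC37 at -0.13. YWHAZ stood at 0.11, YWHAQ at 0.14, YWHAB at 0.10, YWHAE at -0.18, YWHAG at -0.01 and YWHAH at 0.10. PPP1CA and YWHAG thus turned sign, YWHAE was farther from 0 than before, and none of these genes passed with edgeR. The list median was 0.01 without the correction and 0.03 with it.

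Downstream of ERK, 20 phosphatases, effector kinases and ETS-type factors were tested, of which 2 rose, 2 fell and 16 did not pass (20.0% called). RPS6KA3, which encodes the ERK-activated kinase RSK2, rose by 0.23 (SE 0.0713, edgeR adjusted p = 0.0385) and the ETS factor gene ELK4 by 0.22 (SE 0.0636, edgeR adjusted p = 0.0287). MKNK2, a kinase of the translation factor eIF4E, fell by 0.29 (SE 0.0771, edgeR adjusted p = 0.0226) and RPS6KA4, which encodes the kinase MSK2, by 0.32 (SE 0.0943, edgeR adjusted p = 0.0316). In the GC-corrected fit RPS6KA3 stood at 0.06, ELK4 at 0.03, MKNK2 at -0.05 and RPS6KA4 at -0.05. RPS6KA3 stood at 0.15 without SLNCR replicate 3 (edgeR adjusted p = 0.0948) and RPS6KA4 at -0.21 without empty vector replicate 1 (edgeR adjusted p = 0.203), so neither passed there. RPS6KA3 lost its call when any library other than SLNCR replicate 2 was left out (edgeR adjusted p between 0.0582 and 0.175). RPS6KA4 lost its call also without SLNCR replicate 1, SLNCR replicate 3 or empty vector replicate 2 (edgeR adjusted p = 0.0744, 0.0513 and 0.0875). Of 20 genes known to follow ERK activity, 1 rose, 3 fell and 16 did not pass (20.0% called, beside 16.5% of all tested genes). The median of this list was -0.05, and 0.04 with the correction. SPRED1, counted there too, rose, while EPHA2 fell by 0.23 (edgeR adjusted p = 0.0148), SPHK1 by 0.43 (edgeR adjusted p = 0.0263) and FOSL1 by 0.15 (edgeR adjusted p = 0.0444). FOSL1 did not pass with DESeq2 (adjusted p = 0.051). Corrected for GC content, EPHA2 stood at -0.02, SPHK1 at -0.16 and FOSL1 at 0.05.

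**Figure D5:**
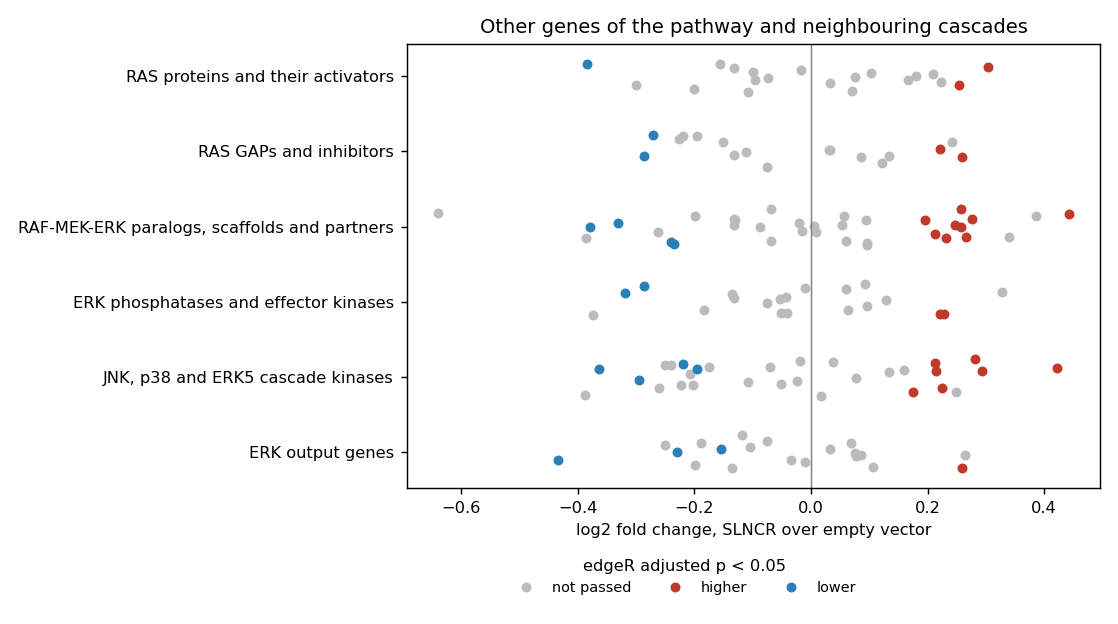
Log2 fold change (SLNCR over empty vector, horizontal axis) of each tested gene in 6 lists of pathway and neighbouring genes, without GC correction, spread vertically for legibility. Red points were higher and blue points lower at an edgeR adjusted p below 0.05, grey points did not pass, and each list holds genes on both sides of 0.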

How the data were processed

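The authors deposited raw read counts per gene for 6 libraries of rRNA-depleted RNA. The submitters' processing notes name cutadapt, STAR, DESeq2 1.24.07 and build GRCh38; their roles are not stated, and no counter, annotation or strand setting is named. The 1857 rows that name no gene (2.15% to 2.59% of counts per library) and 63 repeats of a neighbouring identical row were left out, leaving 18318 genes. GENCODE release 29 (GRCh38) gave symbols, coordinates and lengths; RefSeq (GRCh38.p14) gave promoters.

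SLNCR and empty vector libraries were set against each other in edgeR 4.0.16, run under R 4.3.3. Genes were kept by filterByExpr, and library sizes were scaled by TMM. Dispersions were estimated robustly, and a quasi-likelihood F-test looked for a difference in either direction. Adjustment was by Benjamini-Hochberg over 12797 genes, and the threshold was 0.05. CPM values are TMM-scaled. The GC correction subtracted a loess curve (span 0.5) of each library's deviation in log2 CPM (prior count 2) against the GC content of the longest transcript. Named genes are the 8 members, the paralogs HRAS and KSR2, the 4 with the smallest adjusted p of each pathway list, and the 3 closest in pattern to KSR1 and SHOC2; some genes under this rule are not reported here. Members and lists were chosen with earlier results of these data known. Alternatives were other scalings and filters, DESeq2 1.42.0, a replicate block, the GC correction and leaving out each library.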

Additional observations from a re-analysis of the deposited data

How the results depend on the processing

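Over all genes, 1131 were higher and 981 lower with SLNCR. The counts were 1 and 1 with the GC correction, 1772 and 1751 with the replicate block, and 161 and 246 with the GC correction and the replicate block together. When single libraries were left out the higher genes numbered 1 to 1722 and the lower genes 0 to 1644. Among the 92 other pathway genes the 15 higher and 9 lower became 0 and 0 with the GC correction, 3 and 2 with the GC correction and the replicate block, and 17 and 15 with the replicate block; leaving out single libraries gave 0 to 18 higher and 0 to 15 lower. The main fit did not pair libraries by replicate number. Same-numbered libraries deviated together at r = 0.0749, 0.00726 and 0.239, and differently numbered libraries at r between -0.226 and 0.205. These values do not settle whether the numbers mark pairs. Of the 8 genes, 3 were above 0, and 5 with the GC correction, with or without the block: ARAF then stood at 0.034 and MAP2K1 at 0.0121 (0.034 and 0.0125 with the block). The sign also turned for PTPN11 (-0.0149, and -0.0147 with the block), ERBIN (-0.0163 and -0.0164) and FOSL1 (0.0498 and 0.0498), and for KSR2 when single libraries were left out (-0.27 to 0.28). PPP1CA (0.1554) and YWHAG (-0.0132) turned sign with the GC correction too. By merged exon length, 5 of the 8 genes kept their rank in level, and 6 to 8 when single libraries were left out. Under other scalings, filters and DESeq2 the log2 fold changes of the 8 genes kept their direction, with KSR1 at -0.68 to -0.65 and SHOC2 at 0.41 to 0.43. Counting alone gives a coefficient of variation of 13.8% with SLNCR and 11.2% with the empty vector for KSR1, and of 21.7% and 22.7% for KSR2, which had 15 to 31 counts.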

Other observations

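Kinases of the parallel JNK, p38 and ERK5 cascades, which respond to stress and cytokines and share the tiered layout of the RAF-MEK-ERK cascade, were also counted. Of 30 tested genes 7 rose, 4 fell and 19 did not pass (36.7% called, beside 16.5% of all tested genes, edgeR adjusted p below 0.05). This list too was chosen with earlier results of these data known. MAP2K6, which encodes the p38 activator MKK6, rose (log2 fold change 0.42, SE 0.111, edgeR adjusted p = 0.0211), and it stood at 0.23 with the GC correction (edgeR adjusted p = 0.351). MAP3K2, a kinase upstream of ERK5, rose by 0.28 and MAPK6, which encodes the atypical kinase ERK3, by 0.23 (edgeR adjusted p = 0.0159 and 0.0231). MAP3K11, a kinase upstream of JNK, fell by 0.36 (SE 0.0992, edgeR adjusted p = 0.0276). With the GC correction MAP3K2 stood at 0.04, MAPK6 at 0.02 and MAP3K11 at -0.17, and 0 of the 30 passed with edgeR, with 2 at an unadjusted p below 0.05. The higher genes had a median GC content of 38.5% and the lower genes 62.7%.

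Likeness in pattern was ranked over the 10624 genes that averaged 50 or more counts. Those whose log2 CPM over the 6 libraries was most like that of KSR1 were LARS2 (r = 0.995), ZC4H2 (r = 0.995) and PLAGL2 (r = 0.992), with log2 fold changes of -0.12, -0.18 and -0.07. Their GC contents were 50.8%, 45.9% and 51.4%, against a median of 47.9% over all tested genes. The genes most like SHOC2 were STX12 (r = 0.998), POLR1F (r = 0.997) and HLTF (r = 0.996), with GC contents of 40.6%, 37.3% and 36.6%. Their log2 fold changes were 0.46, 0.29 and 0.30. These correlations over 6 libraries include the difference between the groups, and they describe likeness in pattern alone. The part of the libraries' GC trend in them was not tested.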
